A study of Homo sapiens with 9 samples.

Results

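The baseline transcriptome of mock-transfected ZR-75-1 cells was described from 3 arrays, chosen as the arrays labelled mock, of 9 in the series. ZR-75-1 is an established human breast cancer line that carries the estrogen receptor. It was grown in RPMI-1640 with 10% serum, and the mock cells received the lipid reagent Lipofectamine RNAiMAX without RNA and were harvested at 48 h. The other 6 arrays, used here only for comparison of levels, come from cells that received the same reagent with either a non-specific negative control RNA (3 arrays) or a miR-150-5p mimic (3 arrays), each at 50 nM. All 9 cultures therefore met the lipid, and no array of untouched cells was analysed here. The series addressed the restoration of this microRNA, and the mock arrays give the state of the cells without it.

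Luminal breast epithelium is the layer that lines the ducts. The nuclear receptors for estrogen and progesterone act there together with the transcription factors GATA3 and FOXA1, of which FOXA1 opens chromatin for the estrogen receptor. Luminal cells carry the simple-epithelial keratin pair KRT8 and KRT18, whereas the basal layer carries KRT5 and KRT14, so these genes are used to type breast cancer lines.

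Each gene was given by 1 probeset, the brightest on average over the 9 arrays, on the log2 scale of the deposited values. This gave 14884 named genes, 11915 of them protein-coding, with means over the mock arrays from 1.79 to 13.22. The protein-coding median was 5.94, with quartiles at 4.28 and 7.38. Probesets differ in how well they bind, so the order of intensities between genes is not an order of transcript numbers, and no fold is given between genes. The table has no detection call. A gene was called above background where its value exceeded, on each of the 3 mock arrays, the 95th percentile of the 84 keratin-associated protein genes, which encode hair shaft proteins (6.38, 6.70 and 6.51 on mock replicates 1, 2 and 3). By this rule 4328 of 11915 protein-coding genes (36.3%) and 30.4% of all named genes were above background. Another 840 protein-coding genes exceeded the level on 1 or 2 arrays and 6747 on none. The call is strict: of 34 measured genes for ribosomal proteins, which every cell needs, 24 passed, 4 were mixed and 6 lay within the background range, down to RPL37A at 5.39 ± 0.02 (SD, n = 3). A value within the background range is therefore no sign that a transcript is absent.

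**Figure D1:**
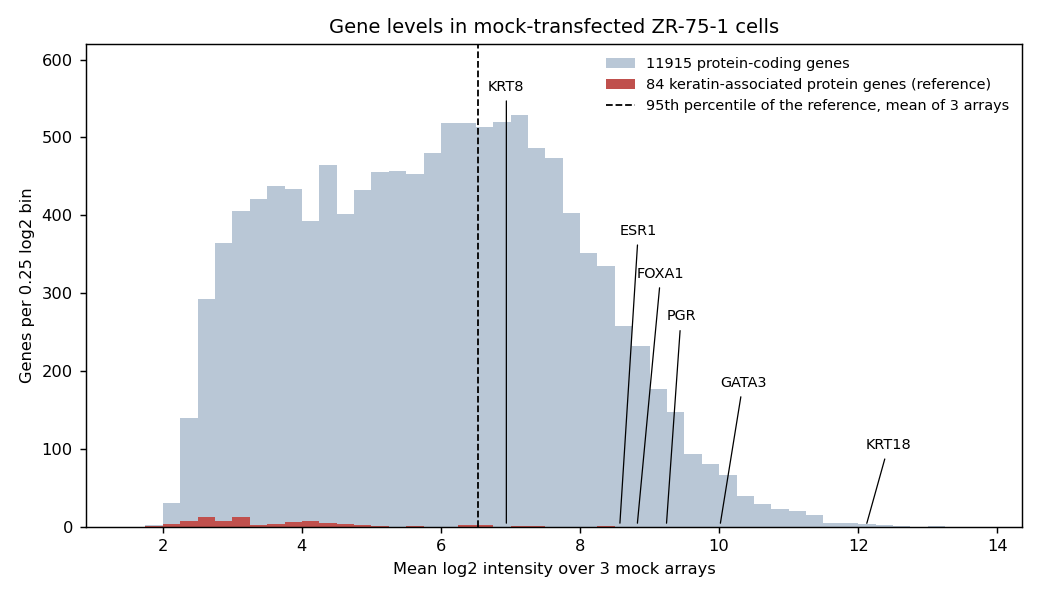
Histogram of the mean log2 intensity over the 3 mock arrays for 11915 protein-coding genes (grey) and the 84 reference genes among them (red), in bins of 0.25, with the dashed line at the mean of the reference's 95th percentile. The 6 markers of the luminal label lie right of the line, from KRT8 at 6.94 to KRT18 at 12.11.

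All 6 markers of the luminal label were above background on every mock array, against 36.3% of protein-coding genes. KRT18, the acidic partner of the simple-epithelial keratin pair, read 12.11, 12.13 and 12.08 on replicates 1, 2 and 3 (12.11 ± 0.02, SD, n = 3) and ranked 9 of 14884. GATA3 read 9.95, 10.22 and 9.84 (10.01 ± 0.20, rank 231). These were among the brightest genes of the cells, and the 3 arrays of each differed by at most 0.38. PGR, the progesterone receptor, read 9.29, 9.16 and 9.26 (9.24 ± 0.07, rank 570). FOXA1 read 8.90, 8.86 and 8.71 (8.82 ± 0.10, rank 908). ESR1, the estrogen receptor alpha gene, read 8.52, 8.55 and 8.63 (8.57 ± 0.06, rank 1174), which is the 90.6th percentile of protein-coding genes. KRT8 stood apart from the others at 6.98, 6.88 and 6.95 (6.94 ± 0.05, the 67.3rd percentile), and it alone of the 6 did not pass the 99th percentile of the reference genes. KRT8 and KRT18 have many near-identical pseudogene copies, so their readings are uncertain, and the difference between the pair was not examined further.

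Promoter sequence was examined as a property that the ranking by intensity did not use. Windows of 250 bases before the start were taken from the RefSeq table of GRCh38.p14, for the 7124 protein-coding genes with exactly 1 start in it. Another 2208 genes had no window and 2583 had several, among them ESR1, GATA3 and PGR, and these were left out. The sequences below are the last 150 bases before the start, 5' to 3' on the gene's strand, with CpG dinucleotides in capitals. They are shown as examples of the range of CpG content, also among bright genes: CTSD, SCD and FOXA1 carry many CpG, SPDEF, AGR2 and MUCL1 few, and KRT5 and ALB stand for genes within the background range.
CTSD, chr11:1763928-1764077, minus strand: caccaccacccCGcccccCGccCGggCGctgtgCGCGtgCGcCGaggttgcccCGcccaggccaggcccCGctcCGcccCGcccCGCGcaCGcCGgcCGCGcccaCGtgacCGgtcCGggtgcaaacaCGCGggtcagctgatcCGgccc
SCD, chr10:100347083-100347232, plus strand: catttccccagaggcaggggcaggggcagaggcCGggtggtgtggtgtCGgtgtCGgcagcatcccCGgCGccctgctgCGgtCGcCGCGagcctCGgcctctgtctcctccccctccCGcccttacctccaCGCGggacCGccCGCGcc
FOXA1, chr14:37595250-37595399, minus strand: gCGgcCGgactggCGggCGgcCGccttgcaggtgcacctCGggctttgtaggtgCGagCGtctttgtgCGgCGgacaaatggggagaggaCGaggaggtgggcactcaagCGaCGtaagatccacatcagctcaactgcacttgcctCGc
SPDEF, chr6:34556330-34556479, minus strand: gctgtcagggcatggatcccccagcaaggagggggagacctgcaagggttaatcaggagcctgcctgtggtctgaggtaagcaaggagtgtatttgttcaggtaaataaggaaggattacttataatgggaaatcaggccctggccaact
AGR2, chr7:16805000-16805149, minus strand: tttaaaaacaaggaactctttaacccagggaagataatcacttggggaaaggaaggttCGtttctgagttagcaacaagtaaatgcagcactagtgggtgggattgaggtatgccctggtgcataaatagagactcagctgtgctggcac
MUCL1, chr12:54854366-54854515, plus strand: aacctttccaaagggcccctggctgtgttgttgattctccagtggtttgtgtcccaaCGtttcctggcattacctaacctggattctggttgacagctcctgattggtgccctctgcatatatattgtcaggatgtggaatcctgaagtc
KRT5, chr12:52520395-52520544, minus strand: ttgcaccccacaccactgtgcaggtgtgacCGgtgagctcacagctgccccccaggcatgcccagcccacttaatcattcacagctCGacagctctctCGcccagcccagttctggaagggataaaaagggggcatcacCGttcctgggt
ALB, chr4:73404137-73404286, plus strand: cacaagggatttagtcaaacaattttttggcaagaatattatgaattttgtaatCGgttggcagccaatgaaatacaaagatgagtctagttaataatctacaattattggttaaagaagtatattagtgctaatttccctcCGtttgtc

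Bright genes had CpG-rich starts far more often than dim ones. The CpG ratio is the number of CpG over the number that the C and G content would give by chance placement, and a start was called CpG-rich above 0.6. Among the dimmest quartile of these genes (1.79 to 4.25) 36.6% were CpG-rich, in the second 62.7%, in the next 86.4% and in the brightest quartile (7.48 to 13.22) 92.1%. The letters TATAAA, searched on both strands, ran the other way, with 18.2%, 8.25%, 4.27% and 3.43%. Of the 60 protein-coding genes with 1 window among the 100 brightest, 90.0% were CpG-rich, near the share of the brightest quartile. The very brightest genes departed from the trend only in TATAAA, which 9 of them (15.0%) held. Over all 7124 genes 69.4% were CpG-rich and 8.53% held TATAAA, and over the 22114 genes of the promoter table with 1 start these shares were 45.6% and 11.8%. The GC box GGGCGG, on both strands, was in 36.9% of the dimmest and 74.1% of the brightest quartile and in 40.9% of the promoter table. It overlaps with the CpG count, since it holds a CpG itself. CCAAT, on both strands, was in 33.4% to 37.3% of the quartiles, in 29 of the 60 brightest (48.3%) and in 33.4% of the table. The full palindrome of the estrogen response element, GGTCA and TGACC with 3 bases between them, was in 1 of the 7124 windows and in 0.0543% of the table, so these windows do not bear on it. These are descriptions across genes, which are not independent, and no test was made.

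**Figure D2:**
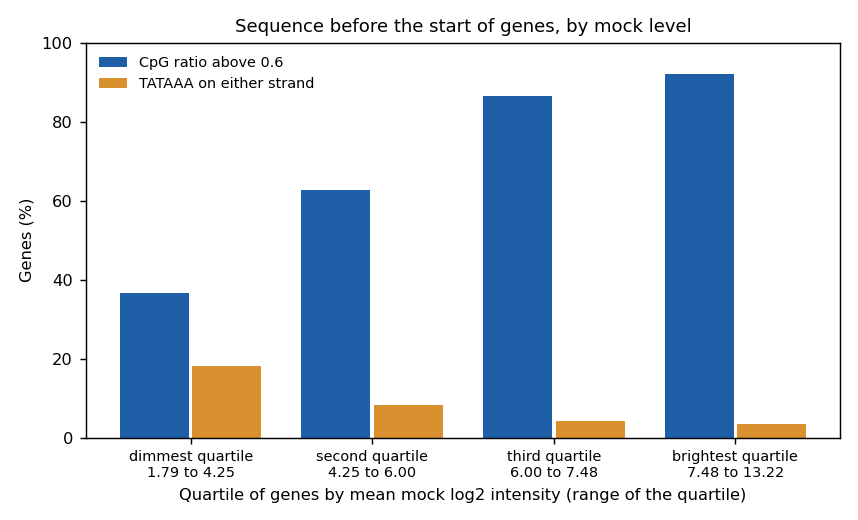
Share of genes, in percent, whose 250 bases before the start have a CpG ratio above 0.6 (blue) or hold TATAAA on either strand (orange), for 4 quartiles of 1781 protein-coding genes each by mean mock log2 intensity. The CpG-rich share rises from 36.6% to 92.1% and the TATAAA share falls from 18.2% to 3.43%.

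Some bright luminal genes had CpG-poor starts, unlike most bright genes. SPDEF, an ETS factor of secretory epithelium with a CpG ratio of 0.39 over 250 bases, read 10.96, 11.03 and 10.87. AGR2, a disulfide isomerase of mucin-secreting cells (0.30), read 9.38, 9.38 and 9.08, and MUCL1, a small mucin-like breast secretory protein (0.15), read 9.52, 9.33 and 9.40. FOXA1 had a ratio of 0.98. Of 13 luminal secretory genes with 1 window, 3 were CpG-rich (STC2, CST3 and WFDC2) and 5 held TATAAA. Only MUCL1, AGR2, STC2 and CST3 of these were above background, and STC2 and CST3 were CpG-rich. The secretory genes with TATAAA, which were AGR3, KLK3, CSN3, CPB1 and CSN2, all lay within the background range. Of 30 keratin genes with a window 0 were CpG-rich and 18 held TATAAA, while all 24 ribosomal protein genes were CpG-rich. Of these keratins only KRT8, with a ratio of 0.07, was above background, so their count is mostly one of dim genes. Of 10 genes of cholesterol synthesis and uptake, all were CpG-rich and 9 held CCAAT, the letters bound by the factor NF-Y, which works with the sterol-regulated SREBP factors.

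The brightest protein-coding genes joined products of luminal breast cells with those of every cell. CTSD, the lysosomal protease cathepsin D, whose gene is a classical target of the estrogen receptor, ranked 1 with 13.27, 13.27 and 13.12 (13.22 ± 0.08, SD, n = 3). SCD, the desaturase that makes monounsaturated fatty acids, followed with 12.52, 12.67 and 12.61 (12.60 ± 0.07). HSPB1, a small heat shock protein also induced by estrogen, read 12.44, 12.51 and 12.43. COX6A1, a subunit of the respiratory chain, read 12.14 ± 0.09. Of the ribosomal proteins RPS27 stood at 12.40 ± 0.11, RPS28 at 12.02 ± 0.02, RPL12 at 11.99 ± 0.05 and RPL41 at 11.92 ± 0.08. EEF2, the elongation factor that moves the ribosome, read 11.88 ± 0.01 and TMSB10, an actin-binding peptide, 11.90 ± 0.11. Epithelial and membrane proteins among the 25 brightest were LAPTM4B, a lysosomal membrane protein (11.70 ± 0.19), TSPAN13, a tetraspanin (11.67 ± 0.03), and S100A14, a calcium-binding protein of epithelia (11.49 ± 0.09). CSE1L, a nuclear export receptor (11.99 ± 0.10), HSPA9, the mitochondrial HSP70 (11.55 ± 0.03), VMP1, an autophagy membrane protein (11.57 ± 0.03), and PRDX1, a peroxidase (11.39 ± 0.04), were also among them. The remaining 7, besides KRT18 described above, were UBL3, NPIPB5, SERINC3, RPL10, PSENEN, SHOC2 and DCXR, from 11.38 to 11.68. Several of the 25, the ribosomal proteins and NPIPB5 among them, have near-identical copies elsewhere in the genome, so their readings can hold signal of those copies. Of the 100 brightest named genes 88 were protein-coding, and the last of them read 10.62.

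Of 26 measured luminal transcription factors 14 were above background (53.8%, against 36.3% of protein-coding genes). The median was 7.61 against 5.94 over protein-coding genes. The list also holds MLPH, a luminal marker that encodes a vesicle transport protein and not a transcription factor. The brightest was TRPS1, a GATA-type repressor of luminal cells, at 11.11, 11.09 and 11.05 (11.08 ± 0.03). XBP1, the factor of the secretory stress response, read 11.04, 11.07 and 11.02 (11.04 ± 0.02). Both stood above the 99th percentile on every array, as did SPDEF and GATA3 given above. TFAP2C and TFAP2B, AP-2 factors of luminal cells (9.58 ± 0.08 and 8.75 ± 0.02), GRHL2, a grainyhead factor that maintains epithelium (9.36 ± 0.06), and EHF, an epithelial ETS factor (9.12 ± 0.04), also passed. The remaining ones that passed were PGR, FOXA1, ESR1, MLPH (8.33 ± 0.09), CREB3L4 (8.08 ± 0.05) and GRHL1 (7.15 ± 0.22). MYB exceeded the level on 2 of 3 arrays (6.77 ± 0.24). The list's dimmest members were OVOL2 (5.21 ± 0.12), TBX2 (4.49 ± 0.06) and HEY1 (2.91 ± 0.11), and ELF5, the factor of milk-secreting alveolar cells, read 5.47 ± 0.29.

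Of 13 measured factors of basal, stem-like or mesenchymal cells only SOX9 was above background (7.69%, against 36.3% of protein-coding genes). It read 7.77 ± 0.28, with its lowest value of 7.45 on replicate 3. SOX9 is made by luminal progenitors as well as basal cells. The next were TWIST1 (5.36 ± 0.10) and SOX10 (5.36 ± 0.22), and ZEB1 (2.88 ± 0.03), ETS1 (3.32 ± 0.03) and TWIST2 (2.80 ± 0.05), of which ZEB1 and TWIST2 repress epithelial genes, were the dimmest. The median was 3.78, and 12 of the 13 exceeded the reference level on no array.

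Among 11 measured nuclear receptors PGR and ESR1 were above background and no other was (18.2%, against 36.3% of protein-coding genes). ESRRA, the estrogen-related receptor alpha, which binds no estrogen (6.43 ± 0.06), and PPARD, a fatty acid-sensing receptor (6.39 ± 0.13), exceeded the level on 1 of 3 arrays. ESR2, the estrogen receptor beta gene, read 3.92, 3.95 and 3.95 (3.94 ± 0.02), with ESRRB (4.27 ± 0.01) and ESRRG (3.80 ± 0.30) beside it at the lower end. Of 48 receptors in the list only these 11 had a named probeset, so the family was seen only in part. With a wider reference the count was 4 of 11, beside 5294 of 11915 protein-coding genes.

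Of 44 receptor tyrosine kinases 9 were above background (20.5%, against 36.3% of protein-coding genes). DDR1, a collagen receptor of epithelia, read 8.94, 8.98 and 8.88 (8.93 ± 0.05). RYK, a Wnt co-receptor (8.57 ± 0.04), EPHB4, an ephrin receptor (8.54 ± 0.12), and IGF1R, the receptor of insulin-like growth factors (8.49 ± 0.16), followed. FGFR4 (8.46 ± 0.22), FGFR2 (7.40 ± 0.14) and FGFR1 (7.02 ± 0.00), receptors of fibroblast growth factors, passed as well. Of the epidermal growth factor receptor family ERBB3 read 7.77, 7.77 and 7.71 and ERBB4 6.72, 6.73 and 6.69, both above background. EGFR read 6.04, 5.89 and 5.87, below the level on every array, and ERBB2 was not analysed here because no probeset carries its name. ROR1 (3.36 ± 0.15), KDR, the endothelial receptor of VEGF (3.26 ± 0.15), and EPHA3 (2.86 ± 0.22) were the dimmest. With a wider reference 14 of 44 passed, beside 5294 of 11915 protein-coding genes.

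Of 31 cytokine and growth factor receptors 14 were above background (45.2%, against 36.3% of protein-coding genes). The list also holds Notch and Wnt receptors. Of these NOTCH1, NOTCH2, NOTCH3, FZD4, FZD6, LRP5 and LRP6 passed, and NOTCH4, FZD1, FZD2, FZD5 and FZD7 did not. NOTCH2 read 9.89, 9.84 and 9.96 (9.90 ± 0.06), FZD6, a Wnt receptor, 9.51, 9.41 and 9.78 (9.57 ± 0.19), and PRLR, the prolactin receptor of mammary epithelium, 8.86, 8.65 and 8.92 (8.81 ± 0.14). LRP6, a Wnt co-receptor, stood at 8.48 ± 0.17. GFRA1, a co-receptor of the RET kinase and an estrogen-induced gene, read 7.60 ± 0.19, whereas its partner RET was not among the kinases that passed. The dimmest were IFNGR1 (4.43 ± 0.15), FZD7 (4.30 ± 0.21) and IL7R, the interleukin 7 receptor of lymphocytes (2.94 on each array). At the 99th percentile of the reference the count was 8 of 31, beside 20.7% of protein-coding genes.

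**Figure D3:**
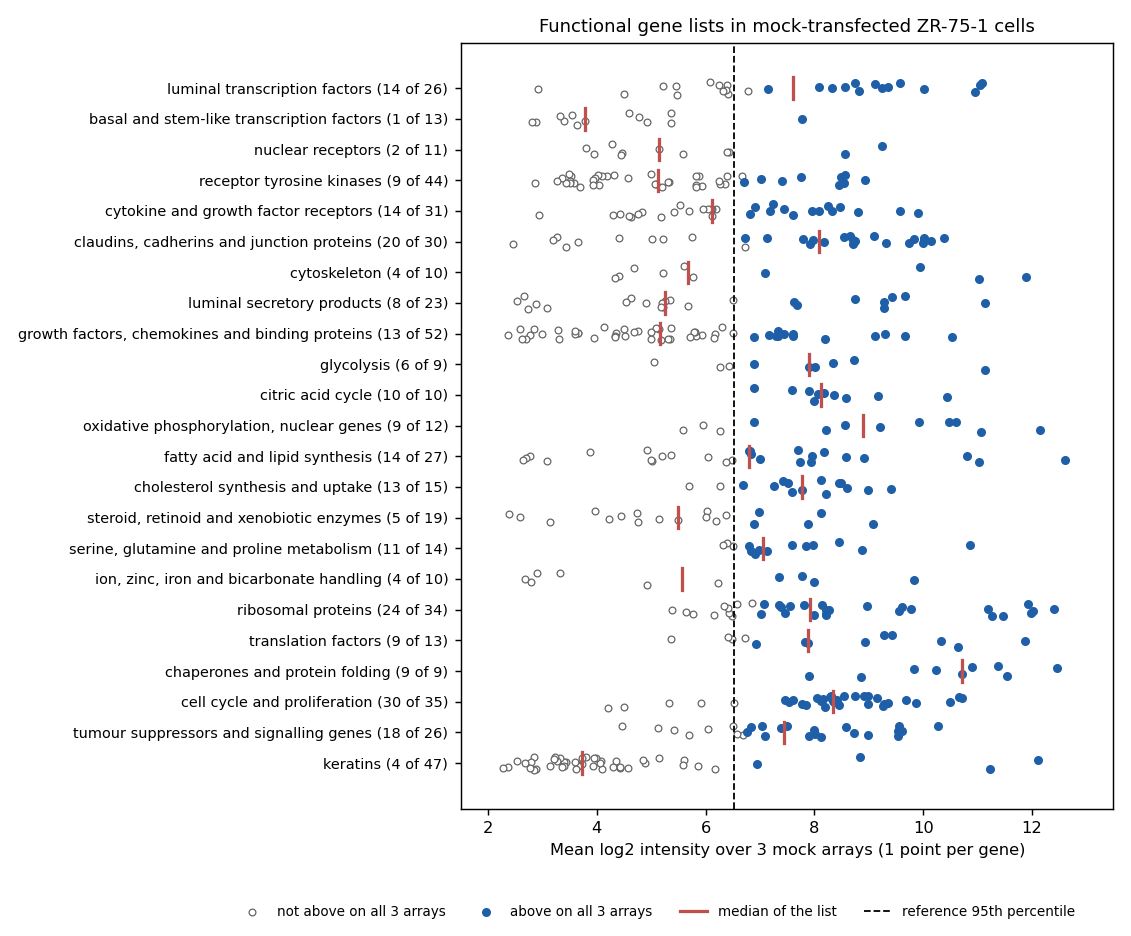
Mean log2 intensity over the 3 mock arrays for each measured member of 23 gene lists, 1 point per gene, filled where the gene was above background on all 3 arrays, with the list's median as a red bar and the reference's 95th percentile as a dashed line. Chaperones, the citric acid cycle and cell cycle genes lie almost wholly right of the line, and keratins and basal factors almost wholly left of it.

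The keratins split sharply. Of 47 measured keratin genes 4 were above background (8.51%, against 36.3% of protein-coding genes). They were KRT18, KRT19 (11.22, 11.29 and 11.17), KRT80 (8.90, 8.80 and 8.80) and KRT8. KRT18, KRT19 and KRT8 are the simple-epithelial keratins of luminal cells. The other 43 were below the level on all 3 arrays, the nearest being KRT15 at 6.18 ± 0.15 and KRT4 at 5.86 ± 0.07. KRT5 read 2.67 on each array and KRT14 4.39, 4.82 and 4.51, so both basal keratins lay within the background range. KRT7, another simple-epithelial keratin of many breast cancers, read 4.83, 3.91 and 4.51 (4.42 ± 0.47), with the largest spread of the family. KRT28, KRT33A and KRT12 were the dimmest, at 2.53 ± 0.01, 2.37 ± 0.18 and 2.27 ± 0.24, and the first pair belong to hair.

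Of 30 proteins of epithelial junctions and their regulators 20 were above background (66.7%, against 36.3% of protein-coding genes). The median was 8.08. EPCAM, the epithelial adhesion molecule, read 10.46, 10.37 and 10.35 (10.39 ± 0.06). ESRP2, a splicing factor of epithelia (10.15 ± 0.07), CLDN7, a tight junction claudin (10.02 ± 0.10), and JUP, plakoglobin of desmosomes (10.02 ± 0.09), followed. The dimmest were CLDN8 (3.27 ± 0.05) and the desmogleins of stratified epithelium, DSG3 (3.19 ± 0.11) and DSG1 (2.46 ± 0.01). CDH1, the E-cadherin gene, has no named probeset and was not analysed here. Of the cytoskeletal genes TMSB10, EZR, an apical membrane linker (11.03 ± 0.03), PFN1 (9.94 ± 0.04) and RDX (7.09 ± 0.27) were above background, 4 of 10 measured (40.0%, near the 36.3% of protein-coding genes). VIM, the mesenchymal intermediate filament vimentin, read 4.97, 5.40 and 5.24, within the background range. CFL1, an actin regulator of nearly all cells, read 4.69 ± 0.03, and NES (4.40 ± 0.07) and VIL1 (4.33 ± 0.08) were the dimmest.

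Of 23 luminal secretory products 8 were above background (34.8%), a share near the 36.3% of protein-coding genes. TFF1, a trefoil peptide and classical estrogen-induced gene, read 11.21, 11.32 and 10.87 (11.13 ± 0.24, rank 44). STC1 and STC2, stanniocalcin hormones, read 9.67 ± 0.16 and 9.28 ± 0.05, beside MUCL1 (9.42 ± 0.09) and AGR2 (9.28 ± 0.18). SLPI, a protease inhibitor of secretions (8.74 ± 0.13), CLU (7.68 ± 0.14) and CST3 (7.63 ± 0.07) completed the 8. The related trefoil gene TFF3 read 6.51, 6.57 and 6.42 and exceeded the level on 1 of 3 arrays. PIP, the prolactin-induced protein of apocrine cells, read 4.91 ± 0.27, and the milk casein genes CSN1S1 (2.88 ± 0.15), CSN3 (2.73 ± 0.30) and CSN2 (2.53 ± 0.18) were at the bottom with CPB1 (2.65 ± 0.05).

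Of 52 growth factors, chemokines and binding proteins 13 were above background (25%, against 36.3% of protein-coding genes). IGFBP5, which binds insulin-like growth factors, read 10.56, 10.55 and 10.47 (10.53 ± 0.05). KITLG, the ligand of the KIT receptor, read 9.70, 9.61 and 9.70 (9.67 ± 0.05), GRN, progranulin, 9.30 ± 0.07, and IGFBP4 9.12 ± 0.11. The inflammatory chemokines CXCL8 (2.63 ± 0.11), CXCL3 (2.59 ± 0.18) and CCL2 (2.37 ± 0.17) were the dimmest of the list. At the 99th percentile 6 of 52 passed, beside 20.7% of protein-coding genes.

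Over the 8 metabolic lists 72 of 116 measured genes were above background (62.1%, against 36.3% of protein-coding genes). All 10 measured genes of the citric acid cycle list passed, led by IDH3G (10.44 ± 0.05), DLAT (9.17 ± 0.13), OGDH (8.59 ± 0.04) and DLD (8.36 ± 0.23). The list also holds DLAT, PDHA1 and PDHB, subunits of pyruvate dehydrogenase, which feeds the cycle and is not part of it. Of 12 nuclear genes of oxidative phosphorylation 9 passed, with COX6A1, UQCRC2 (11.07 ± 0.06), COX4I1 (10.60 ± 0.07) and COX8A (10.47 ± 0.15) on top, and COX7A2 (6.26 ± 0.12), COX6C (5.95 ± 0.18) and UQCRH (5.59 ± 0.07) at the lower end. Of 9 glycolysis genes 6 passed: GPI (11.13 ± 0.03), PGK1 (8.72 ± 0.00), HK1 (8.35 ± 0.10), GAPDH (8.01 ± 0.05), PGAM1 (7.90 ± 0.06) and HK2 (6.88 ± 0.06). TPI1 (6.43 ± 0.11), LDHA (6.26 ± 0.05) and LDHB (5.05 ± 0.02) did not.

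The brightest metabolic gene, SCD, belonged to lipid synthesis, although the median of that list, 6.79, was below the 7.06 of all metabolic genes. Of 27 genes of fatty acid and lipid synthesis 14 passed (51.9%, against 36.3% of protein-coding genes). FASN, the fatty acid synthase, read 10.99, 11.29 and 10.82 (11.03 ± 0.24), ACLY, which makes cytosolic acetyl-CoA, 10.83, 10.81 and 10.79, and ACACA, which makes malonyl-CoA, 8.92 ± 0.02. With SCD these form the route from citrate to monounsaturated fatty acids, and all 4 stood above the 99th percentile of the reference on each array. The dimmest members of the list were the acyl-CoA synthetase ACSL5 (2.77 ± 0.08), the lipoprotein lipase LPL (2.70 ± 0.10) and the fatty acid receptor CD36 (2.64 ± 0.20). Of 15 cholesterol genes 13 passed (86.7%), with MSMO1 (9.41 ± 0.03), DHCR7 (8.99 ± 0.20), INSIG1 (8.60 ± 0.07) and EBP (8.49 ± 0.01) on top. MVK (6.27 ± 0.11) and HSD17B7 (5.69 ± 0.21) did not pass. The count was 8 of 15 at the 99th percentile, and that of lipid synthesis 9 of 27, beside 20.7% of protein-coding genes.

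Of 14 genes of serine, glutamine and proline metabolism 11 passed (78.6%, against 36.3% of protein-coding genes). ASS1, which makes argininosuccinate, read 10.91, 10.90 and 10.76, and PYCR1 (8.87 ± 0.19), GLUL (8.45 ± 0.05) and PHGDH (7.98 ± 0.03) followed, with ASNS (6.50 ± 0.08), SHMT1 (6.40 ± 0.20) and ODC1 (6.31 ± 0.22) above the level on 1 of 3 arrays. At the 99th percentile 5 of 14 passed, beside 20.7% of protein-coding genes. Of 19 steroid, retinoid and xenobiotic enzymes 5 passed (26.3%, below the 36.3% of protein-coding genes). They were HSD17B4 (9.07 ± 0.06), TPMT (8.13 ± 0.09), HSD17B1, which makes estradiol from estrone (7.89 ± 0.28), GSTK1 (6.98 ± 0.06) and GSTT1 (6.89 ± 0.13). HSD17B2, which runs the estradiol step backward, read 3.13 ± 0.26. NAT2 (2.58 ± 0.10) and MGST1 (2.38 ± 0.06) were the dimmest, and 3 of 19 passed at the 99th percentile, where 20.7% of protein-coding genes did. Of 10 genes of ion and metal handling 4 passed (40.0%, near the 36.3% of protein-coding genes): CA12, an estrogen-induced carbonic anhydrase, at 9.78, 9.85 and 9.88, and the metallothioneins MT2A (7.99 ± 0.30), MT1F (7.77 ± 0.23) and MT1X (7.34 ± 0.40). CP (2.89 ± 0.09), MT1G (2.79 ± 0.20) and MT1M (2.68 ± 0.02) were at the bottom of it.

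The cells had high readings for proliferation genes. Of 35 cell cycle genes 30 were above background (85.7%, against 36.3% of protein-coding genes), with a median of 8.35. TOP2A, the mitotic topoisomerase, read 10.68, 10.69 and 10.76, MKI67, which encodes the Ki-67 antigen, 10.69, 10.69 and 10.58, PLK1 10.49 ± 0.05 and CCND1, cyclin D1, 9.88, 9.96 and 9.73. Of those that did not pass, the dimmest were CCND3 (5.32 ± 0.11), CDKN2A, the p16 inhibitor gene (4.50 ± 0.05), and CCND2 (4.20 ± 0.23), so CCND1 was the cyclin D gene above background. Of 26 tumour suppressor and signalling genes 18 passed (69.2%). They were led by KMT2C (10.27 ± 0.05), NF1 (9.61 ± 0.04), SMAD2 (9.55 ± 0.12) and BCL2 (9.54 ± 0.05), an apoptosis inhibitor induced by estrogen. MAP2K4 (5.41 ± 0.40), RUNX1 (5.12 ± 0.09) and SMAD3 (4.46 ± 0.15) were at the bottom. All 9 chaperones passed, HSPB1, HSPA9, CALR (11.37 ± 0.05) and HSPA1A (10.89 ± 0.07) being the brightest. Of 13 translation factors 9 passed (69.2%), led by EEF2, EEF1A2 (10.64 ± 0.09), EEF1G (10.32 ± 0.16) and EIF1 (9.43 ± 0.02). EEF1A1, which is made in great amounts by most cells, read 6.48 ± 0.10, beside NACA (6.42 ± 0.03) and EIF5A (5.36 ± 0.04). The low readings of such genes limit what the intensities say of transcript numbers.

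Markers of other lineages were almost wholly within the background range. Of 218 measured markers in 22 lineage lists 4 were above background (1.83%, against 36.3% of protein-coding genes), 3 were mixed and 211 exceeded the level on no array. In 18 of the 22 lists no member passed. RNA from a culture cannot tell few cells with much of a transcript from many cells with little, so these counts speak of the culture as a whole.

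**Figure D4:**
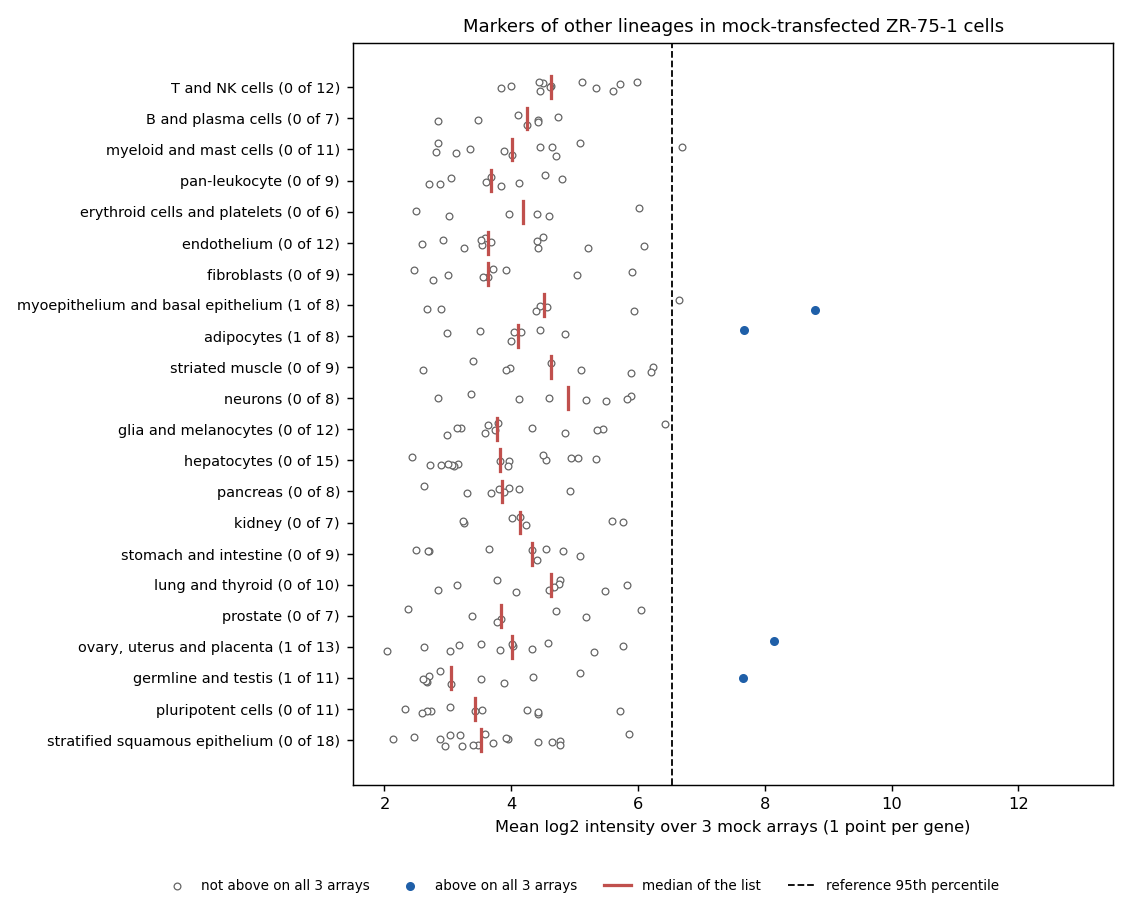
Mean log2 intensity over the 3 mock arrays for the measured markers of 22 other lineages, 1 point per gene, filled where the gene was above background on all 3 arrays, with list medians as red bars and the reference's 95th percentile as a dashed line. The 4 filled points are SFN, CFD, INSL4 and PRAME.

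The 4 markers above background were single members of their lists. SFN, the 14-3-3 sigma protein made by many epithelia, read 8.83, 8.86 and 8.67. INSL4, an insulin-like peptide of placenta, read 8.31, 8.22 and 7.92. CFD, complement factor D of fat cells, read 7.68, 7.70 and 7.64. PRAME, an antigen of testis that many tumours carry, read 7.62, 7.68 and 7.69. Their lists had 8, 13, 8 and 11 measured members, and the medians of these lists were 4.51, 4.02, 4.10 and 3.05. The 3 mixed ones were CD68, a lysosomal protein of macrophages (6.81, 6.97 and 6.28), OXTR, the oxytocin receptor of myoepithelium (6.82, 6.90 and 6.24), and MBP (6.43 ± 0.03). CD68 and OXTR passed when mock replicate 3 was left out, so that 6 of 218 did.

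The lists of leukocytes, erythroid cells and platelets, endothelium and fibroblasts gave no member above background. Of 39 measured markers in the lists of T and NK cells, B and plasma cells, myeloid and mast cells and all leukocytes, CD68 was the brightest, followed by CD7 at 5.99 ± 0.27. VPREB1 (4.73 ± 0.22) led the B cell list and LCP1 (4.80 ± 0.20) the pan-leukocyte list. The brightest marker of erythroid cells and platelets was PF4 (6.02 ± 0.37), of endothelium ESAM (6.10 ± 0.09) and of fibroblasts FN1 (5.90 ± 0.07). DCN, decorin, the defining fibroblast proteoglycan, read 2.46 ± 0.15 and PECAM1, the endothelial CD31, 2.60 ± 0.19. The same held for muscle (MB, 6.24 ± 0.14), neurons (SYP, 5.89 ± 0.15) and hepatocytes (ASGR1, 5.34 ± 0.11). ALB, the albumin gene, read 4.15, 3.82 and 3.88. In pancreas PDX1 was brightest (4.93 on each array), in kidney WT1 (5.77 ± 0.05), in stomach and intestine APOA4 (5.08 ± 0.09), in lung and thyroid AGER (5.83 ± 0.03) and in prostate STEAP4 (6.05 ± 0.07). SOX2 (5.71 ± 0.25) led the list of pluripotent cells and KRT4 that of stratified squamous epithelium.

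The 3 mock arrays agreed closely, and mock replicate 3 stood farthest from the others. Over the named genes the SD had a median of 0.11 and a 95th percentile of 0.30. Array medians of all probesets were 4.26, 4.25 and 4.23. Pearson's r across genes was 0.9954 between replicates 1 and 2, 0.9937 between 1 and 3 and 0.9933 between 2 and 3. Mock replicate 3 differed by more than 0.5 from the mean of the others in 446 genes (3.00%), against 254 for replicate 1 and 276 for replicate 2. Of the 10 protein-coding genes above background with the largest range, replicate 3 was the array farthest from the median in 8.

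CLDN1, a tight junction claudin, read 10.05 and 10.20 on mock replicates 1 and 2 and 9.29 on replicate 3, and 9.51, 9.35 and 9.32 on the negative control arrays. CALU, a calcium-binding protein of the secretory pathway, read 9.91 and 9.87 on mock replicates 1 and 2 and 0.91 below the first of these on replicate 3, and 8.92, 9.16 and 9.17 in the negative control. GRPR, the receptor of gastrin-releasing peptide, read 7.25, 6.88 and 7.92 in mock and 7.78, 8.09 and 7.79 in the negative control. Over the 10 genes, replicate 3 was the mock array nearest to the negative control mean in 7. These genes were chosen for a large range between mock arrays, and the share over all genes was not computed. The count therefore cannot show whether replicate 3 resembled that group. The others of the 10 were GXYLT1, MEX3D, APOO, EPS8, PDE7A, MBNL2 and MESP2, with ranges from 0.79 to 1.06. The part of handling or array processing in this was not tested.

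The baseline was largely shared by the other 6 arrays. The 100 brightest genes of the mock arrays included 97 of the 100 brightest in the negative control mean and 92 of those in the mimic mean. The levels of KRT18, GATA3, FOXA1 and KRT8 overlapped between mock and both other groups. Those of ESR1 and PGR overlapped between mock and negative control, and did not overlap with the mimic arrays, whose means were 9.01 and 9.88. Of the 100 brightest genes 14 did not overlap between negative control and mock, against 8.10% of all named genes, and 23 between mimic and mock, against 12.7%. Without mock replicate 3 both counts were 48, beside 27.1% and 25.1% of all genes, without replicate 1 they were 19 and 30 (14.6% and 19.7% of all genes), and without replicate 2 they were 21 and 27 (14.8% and 19.9%). Both comparisons use the same mock arrays. No contrast between groups was fitted here.

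**Figure D5:**
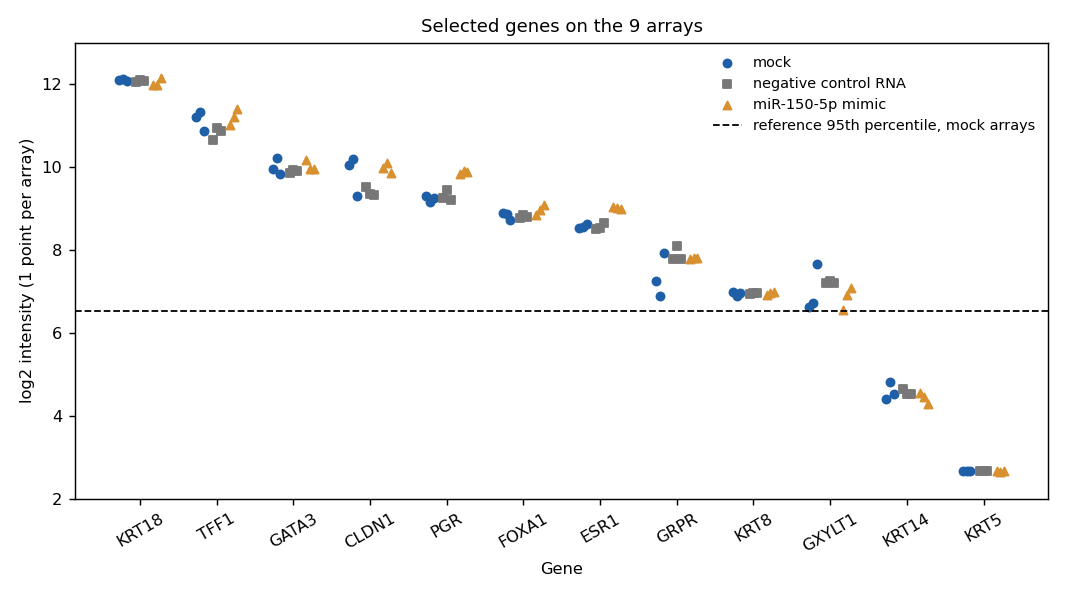
log2 intensity of 12 genes on each of the 9 arrays, 3 per group, with the dashed line at the mean of the reference's 95th percentile in the mock arrays. KRT18 was the brightest and KRT5 the dimmest of the 12 on all 9 arrays, while CLDN1, GRPR and GXYLT1 show mock replicate 3 away from replicates 1 and 2.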

How the data were processed

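Expression was measured on 9 one-colour Affymetrix Human Gene 2.0 ST arrays. The deposited table holds 1 log2 value per probeset for 53617 probesets, made by the authors with RMA per the submitters' processing notes; RMA equalises arrays and summarises probes, so that small shifts common to a whole array are removed. The RMA version, probe annotation and build: not given in the sources used here. Of the probesets 16098 carried 1 gene symbol through the platform annotation, 0 several, and 37519 are unnamed here; 779 genes had several named probesets.

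The deposited values were used without further normalization, in Python 3.11.15 with pandas 2.3.3. Olfactory receptors had been planned as the background reference at the 99th percentile, but 0 of them were named, nor any taste receptor or defensin. The keratin-associated genes and the 95th percentile, both listed beforehand as other settings, were taken in their place after the values had been seen, since with 84 genes the 99th percentile rests on the brightest pair. The code for the calls was run on simulated data with 200 genes set well above the level and the other genes outside the reference well below it. That checks the code only and does not bear on calls for genes near the level. The members and gene lists were chosen with earlier results of these data known. No group contrast was fitted and no p-value is given. Precision is limited by the number of arrays. The design text states triplicate transfections without saying whether they were independent, so an SD may be technical.

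Genes named are the 6 label markers, the 25 brightest protein-coding genes, up to 4 brightest members above background and up to 3 dimmest members of each list, the lineage markers above background or else each list's brightest, and the 10 genes of largest range. Others named, such as the further kinases, transcription factors, keratins and secretory genes, ELF5, VIM, CFL1, DCN, PECAM1 and those of the promoter sequences, and the promoter motifs and groups, were chosen after their values were seen. Alternatives were the stricter percentile, the mean of the arrays, quantile normalization, averaged probesets, protein-coding genes only, each array left out and, added after seeing the data, a wider reference of 151 genes.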

Additional observations from a re-analysis of the deposited data

How the results depend on the processing

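The count of protein-coding genes above background, 4328, was 2472 at the 99th percentile of the reference and 5294 with the wider reference, which was chosen after seeing the data. Leaving out 1 mock array gave from 4332 to 4735 genes. The lineage markers above background, 4 of 218, were 8 with the wider reference. That reference takes in the LCE, SPRR and PSG families, some of whose genes are lineage markers here. Those markers therefore helped to set the level they were judged against. Of the 100 brightest genes, the number that did not overlap between mimic and mock was 23 with all arrays and from 27 to 48 without 1 mock array. It was 48 without mock replicate 3; fewer arrays make separation easier, and over all genes the share rose as well. The label markers above background stayed 6 under every alternative but the 99th percentile, where there were 5, and the keratins stayed 4 with 3 there. The olfactory receptor reference was not run, as 0 of its genes were named. Lineage markers were 6 without mock replicate 3, also 6 by the mean of the mock arrays, and 4 without replicate 1 or 2. No paired analysis was possible because the results come from no test: levels in the mock arrays were described and no contrast between groups was fitted. Without background values of the scanner, signal over background cannot be given for single probesets, and low readings are the least certain.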

Other observations

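Transcripts that encode no protein were also among the brightest readings of the mock cells. SNAR-B1 and SNAR-C1, small RNAs made by RNA polymerase III, read 12.78 ± 0.07 and 12.54 ± 0.07 (SD, n = 3), and RMRP, the RNA of the RNase MRP complex, 12.71 ± 0.11. Among long noncoding RNAs MALAT1, a nuclear speckle RNA, read 11.66 ± 0.14 and NORAD, which binds Pumilio proteins, 10.95 ± 0.07. Of 1398 long noncoding RNA genes 58 were above the background level used for the report (4.15%), of 447 pseudogenes 55 (12.3%) and of 1072 microRNA genes 65 (6.06%), against 36.3% of protein-coding genes. MIR4737 was the brightest microRNA gene, at 11.12 ± 0.31, and ANXA2P2 the brightest pseudogene, at 12.04 ± 0.07. Pseudogenes resemble their parent genes, so their readings can hold signal of transcripts that do encode protein. The pseudogenes PMS2P2 and PMS2P5 had the same readings on every array. These genes were named after their values were seen, and small RNAs were judged here against a reference of protein-coding genes. Per the labels, the RNA was labelled with a FlashTag biotin kit.

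Probesets with no name in the annotation used held signal of the same size. Of the 37519 unnamed probesets 5779 (15.4%) had a mock mean above the mean of the reference level, 533 were at least as bright as the 100th named gene and 18 were brighter than CTSD.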
